A study of Homo sapiens with 6 samples.

Results

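The endoplasmic reticulum (ER) chaperone and unfolded protein response genes were followed in MDA-MB-231 cells, a human triple-negative breast cancer (TNBC) cell line, after treatment with an aqueous extract of the herb Salvia chinensis Benth (SCH). The genes were a list of 40 gene symbols, chosen by name with no threshold on their values, and each matched 1 of the 58735 rows of the deposited table. The study sequenced mRNA purified with poly-T beads from 3 vehicle-treated and 3 SCH-treated cultures, described as biological repeats. SCH was given at 100 mg/l and both groups were kept for 24 h, and the cells of both are of wild type genotype. The labels give RPMI-1640 as the medium and the study's methods give DMEM, and neither says what the vehicle was. Gene counts summed to 20291379, 18714240 and 18334857 after vehicle and to 16836369, 17979434 and 18414924 after SCH.

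Proteins that enter the ER fold with the help of the chaperone BiP, encoded by HSPA5, and of lectin chaperones and disulfide isomerases. When unfolded proteins build up, the sensors IRE1, PERK and ATF6 start the unfolded protein response. IRE1 removes an intron from XBP1 mRNA, PERK phosphorylates eIF2alpha and thereby favors translation of ATF4, and ATF6 is cut in the Golgi to free a transcription factor. Known targets of the response include BiP itself, other chaperones and the machinery of ER-associated degradation (ERAD), which exports misfolded proteins to the proteasome. Counts per gene do not measure the splicing of XBP1 mRNA, phosphorylation or any protein.

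Expected markers of the cell line were checked first. VIM, CD44, CAV1, AXL and MSN, which mark mesenchymal TNBC lines, had 263, 96.6, 103, 293 and 118 FPKM in the vehicle-treated samples, where FPKM are the authors' fragments per kilobase of gene length, scaled by a factor per sample that was 0.992 to 1.00 times the total count after vehicle and 1.06 to 1.07 times after SCH. ESR1 and PGR, the hormone receptor genes, had 0.218 ± 0.0109 CPM (SD, n = 3) and no count, respectively, after vehicle, where CPM are counts per 1000000 counts on the genes tested, after TMM normalization. ERBB2, the HER2 gene, was measurable at 6.67 FPKM, and so were the epithelial and luminal genes EPCAM (6.53), GATA3 (3.84) and FOXA1 (0.995 FPKM), while CDH1 was near 0 at 0.0401 FPKM. The markers of other cell types PTPRC, PECAM1, ALB, INS and GFAP had at most 2.42 CPM in any sample.

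The promoters of some members are shown because the response is known to act through short sequences in them. Of the 40 members, 37 had a promoter in RefSeq (GRCh38.p14), taken as 250 bases before to 50 after a gene's start. No promoter was at hand for PDIA3, DERL1 and DERL3. The ER stress response element ERSE was searched on both strands as CCAAT, then 9 bases of any kind, then CCACG. It was found in 7 of the 37 promoters (18.9%) and in 0.0769% of all 35116 promoters. For each member only 1 start was searched, while the 35116 hold every distinct start listed for a gene. The 7 genes were HSPA5, HSP90B1, CANX, XBP1, CALR, CRELD2 and ERO1B. Of these, 4 were lower after SCH, 1 was higher and 2 did not pass the test, where 29.4% of all genes tested were lower and 29.3% higher. No tendency is read from so few genes. The 4 lowered genes are given below as examples of the element, with the 200 bases before the start, 5′ to 3′ on the strand of the gene, and capitals mark the fixed letters of ERSE, which HSP90B1 holds once on each strand. The starts are those of RefSeq, and for CANX, HSP90B1 and XBP1 they lie inside the gene as the deposited files bound it, for CANX far downstream of its first base.
HSPA5 (chr9:125241344-125241543, minus strand): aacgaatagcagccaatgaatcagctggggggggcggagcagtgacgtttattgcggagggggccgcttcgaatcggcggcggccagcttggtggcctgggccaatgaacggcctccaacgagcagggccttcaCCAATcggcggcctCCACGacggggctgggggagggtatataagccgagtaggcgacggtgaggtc
HSP90B1 (chr12:103930210-103930409, plus strand): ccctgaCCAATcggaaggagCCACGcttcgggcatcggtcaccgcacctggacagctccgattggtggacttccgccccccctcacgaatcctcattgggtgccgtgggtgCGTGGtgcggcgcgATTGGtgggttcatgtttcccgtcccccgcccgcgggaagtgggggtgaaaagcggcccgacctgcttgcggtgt
XBP1 (chr22:28800570-28800769, minus strand): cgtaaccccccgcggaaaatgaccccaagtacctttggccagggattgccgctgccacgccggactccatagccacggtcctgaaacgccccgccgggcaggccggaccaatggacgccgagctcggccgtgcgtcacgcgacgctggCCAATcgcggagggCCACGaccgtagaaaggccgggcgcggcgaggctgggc
CANX (chr5:179698729-179698928, plus strand): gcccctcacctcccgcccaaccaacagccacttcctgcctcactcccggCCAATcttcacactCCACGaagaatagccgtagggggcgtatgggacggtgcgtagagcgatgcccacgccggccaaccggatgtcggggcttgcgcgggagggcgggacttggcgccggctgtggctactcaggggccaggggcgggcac

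The other ERSE matches lay in the promoters of ERO1B, which was raised, and of CALR and CRELD2, which did not pass the test. They are shown for comparison with those above, and they lie on the opposite strand, so that the capitals read CGTGG first.
ERO1B, 243 to 225 bases before the start: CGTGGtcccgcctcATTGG
CALR, 225 to 207 bases before the start: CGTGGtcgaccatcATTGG
CRELD2, 80 to 62 bases before the start: CGTGGcgaactcggATTGG
The related element ERSE-II, searched on both strands as ATTGG, 1 base of any kind and CCACG, was found in HYOU1, HERPUD1 and SDF2L1, that is in 8.11% of the members' promoters and 0.0541% of all. None of these 3 genes passed the test, and HYOU1 held 2 matches.
HYOU1, both matches: CGTGGtCCAAT
HERPUD1: ATTGGgCCACG
SDF2L1: CGTGGaCCAAT
UPRE, searched as TGACGTGG, was found in DNAJC10, HYOU1 and TXNDC11 and in 0.729% of all promoters, with the match of HYOU1 overlapping an ERSE-II match. CARE, searched as TGATGCAA, was found in PPP1R15B and HERPUD1 and in 0.866% of all promoters. Both were searched on both strands. No match to ERSE, ERSE-II, UPRE or CARE lay in the windows of ERN1, DNAJB9 and SYVN1. CCACG alone, which is contained in ERSE, ERSE-II and the reverse complement of UPRE, was found on either strand in 23 of the 37 promoters (62.2%) and in 38.1% of all. These 23 included DNAJB9 and SYVN1 and held 9 raised genes, 6 lowered genes and 8 that did not pass. Of all genes tested, 29.3% were raised and 29.4% lowered, and no tendency is read from these counts. A match is a description of the letters, and binding was not measured.

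After 24 h of SCH, the members moved in both directions. Of the 39 that were tested, 11 were higher and 10 were lower (edgeR's quasi-likelihood test, Benjamini-Hochberg adjusted p under 0.05 over all 14736 genes tested), and 18 did not pass. Together 53.8% had changed, against 58.7% of all genes tested. The share of raised genes was 29.3% and that of lowered genes 29.4% over all genes. The groups did not overlap in 22 of the 39 members, against 62.4% of all genes tested. The median absolute log2 fold change was 0.18 in the members and 0.31 in all genes. Their median log2 fold change was 0.026, beside -0.0034 over all genes. No member had a log2 fold change of at least 1 in either direction. Of all genes tested, 8.77% had one together with an adjusted p under 0.05 by edgeR. When counts were scaled by library size alone and not by TMM factors, which moved the median of all genes to 0.099, 16 members were higher and 7 were lower. In that fit 8814 of all genes had changed, and their split by direction was not counted, so no tendency of the members is read from it. In whole cultures, a change in the mix of cell states and a change in mRNA per cell cannot be told apart. Markers of the cell line moved as well. Of the 5 mesenchymal markers 4 were lowered, with log2 fold changes of -1.17 for CAV1, -0.84 for AXL, -0.56 for VIM and -0.19 for MSN, and CD44 did not pass (0.033). Their summed level was 5095, 5177 and 5132 CPM after vehicle and 3658, 3697 and 3704 CPM after SCH, with AXL the most abundant per length after vehicle. Of the 4 tested markers that are low in such lines, FOXA1 (1.16) and ERBB2 (0.29) were raised and GATA3 (-0.79) and EPCAM (-0.52) were lowered. Of the 3 tested markers of other cell types, PTPRC was lowered, from 1.99 ± 0.0750 to 0.290 ± 0.171 CPM (SD, n = 3 each). The part of these changes in the results on the members was not tested.

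**Figure D1:**
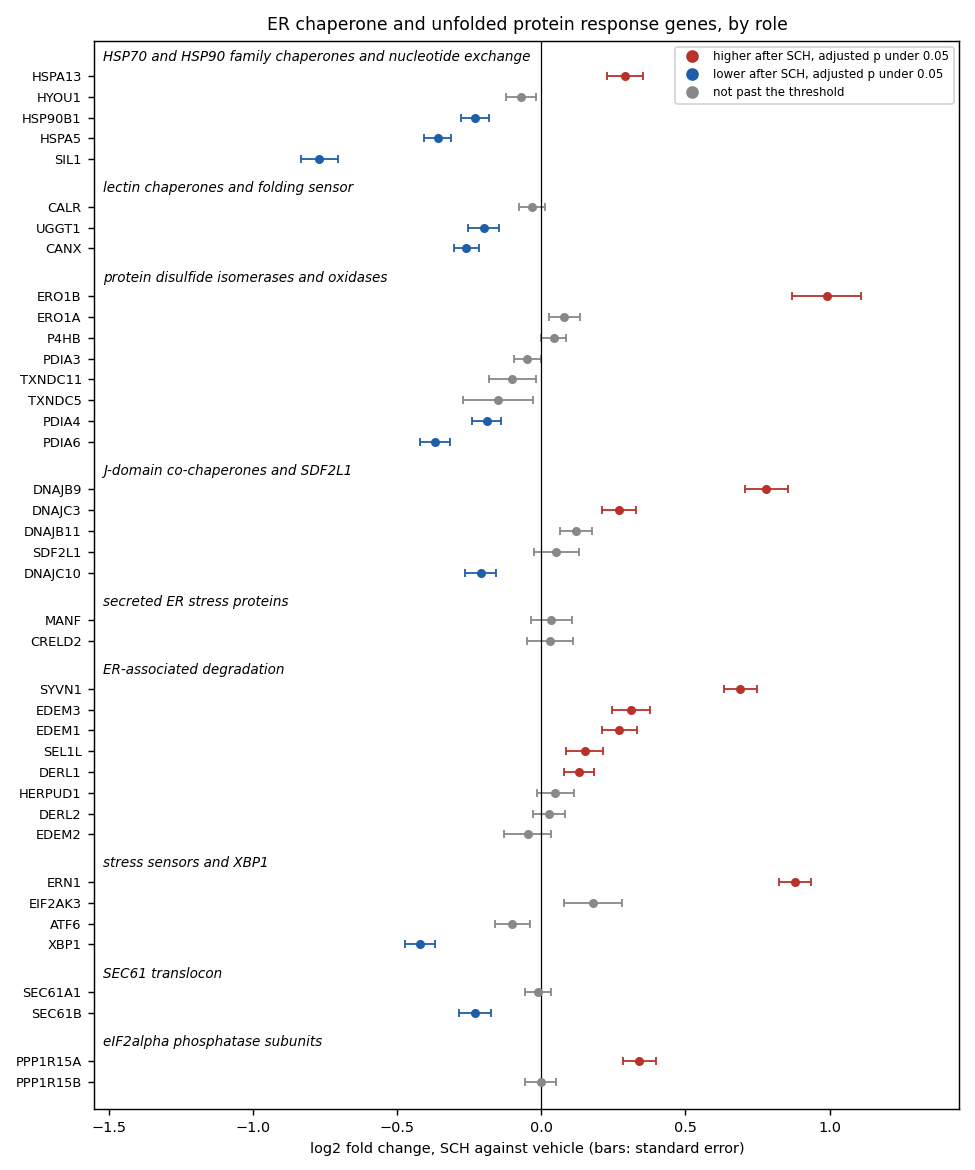
Log2 fold change of SCH against vehicle (horizontal axis) for the 39 tested members, grouped by role, with bars for the standard error and colors for the result of edgeR's test. ERAD genes lie near or to the right of 0, with EDEM2 at -0.047 the only value below it. The HSP70, HSP90 and nucleotide exchange genes hold 3 lowered genes and 1 raised gene. Of all genes tested, 29.3% were raised and 29.4% lowered.

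HSPA5 (ENSG00000044574, chromosome 9 of GRCh38, 125234853 to 125241330), the gene of BiP and the best known target of the response, was lower after SCH. It had 984, 974 and 958 CPM in the vehicle-treated samples and 774, 778 and 718 CPM in the SCH-treated samples. All SCH-treated samples lay below all vehicle-treated samples, and the gene fell by 22.2% (log2 fold change -0.36, standard error (SE) 0.046, adjusted p = 4.49e-07 by edgeR). Its ERSE lies 66 to 48 bases before the start in the promoter printed above.

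With HSPA5 counted, 3 of the 5 tested genes of the HSP70 and HSP90 families and of nucleotide exchange were lowered and 1 was raised. That is 80.0% changed, beside 58.7% of all genes tested, where 29.4% were lowered and 29.3% raised. SIL1 (ENSG00000120725, chromosome 5, 138946720 to 139293557) encodes a nucleotide exchange factor that lets BiP release its clients. It had 57.4, 55.8 and 52.2 CPM after vehicle and 32.3, 31.7 and 33.0 CPM after SCH, the largest fall of any member (log2 fold change -0.77, SE 0.065, adjusted p = 6.11e-10 by edgeR). HSP90B1, the ER member of the HSP90 family known as GRP94, had 579.9 ± 14.5 CPM (SD, n = 3) after vehicle and 495 ± 20.2 CPM (SD, n = 3) after SCH, with a log2 fold change of -0.23. HSPA13, an HSP70-like protein of microsomes, went the other way. It had 85.8, 90.5 and 95.7 CPM after vehicle and 99.4, 118 and 115 CPM after SCH (log2 fold change 0.29, SE 0.063, adjusted p = 3.84e-04 by edgeR). HYOU1, a large HSP70-like chaperone that also serves BiP as an exchange factor, had 367 ± 17.9 CPM (SD, n = 3) after vehicle and 349.7 ± 20.2 CPM (SD, n = 3) after SCH, and its difference did not pass the test (adjusted p = 0.251 by edgeR). Summed over the 5 genes, the level was 2070.2, 2074 and 2050.0 CPM after vehicle and 1789, 1772 and 1670.3 CPM after SCH.

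The lectin chaperones hold glycoproteins that carry a single glucose, and UGGT1 puts that glucose back on proteins that are not yet folded. CANX, which encodes the membrane-bound calnexin (ENSG00000127022, chromosome 5, 179678628 to 179730925), had 1753, 1693 and 1807 CPM after vehicle and 1458, 1470.3 and 1470.0 CPM after SCH. The groups were apart and the log2 fold change was -0.26 (SE 0.044, adjusted p = 2.98e-05 by edgeR). CALR, which encodes the soluble calreticulin, had 983 ± 38.8 CPM (SD, n = 3) after vehicle and 962 ± 4.95 CPM (SD, n = 3) after SCH, a difference within the spread of the vehicle-treated samples (log2 fold change -0.032, adjusted p = 0.573 by edgeR). UGGT1 was lower, with a log2 fold change of -0.20. That call was lost with library size alone (-0.09, adjusted p = 0.142 by edgeR).

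**Figure D2:**
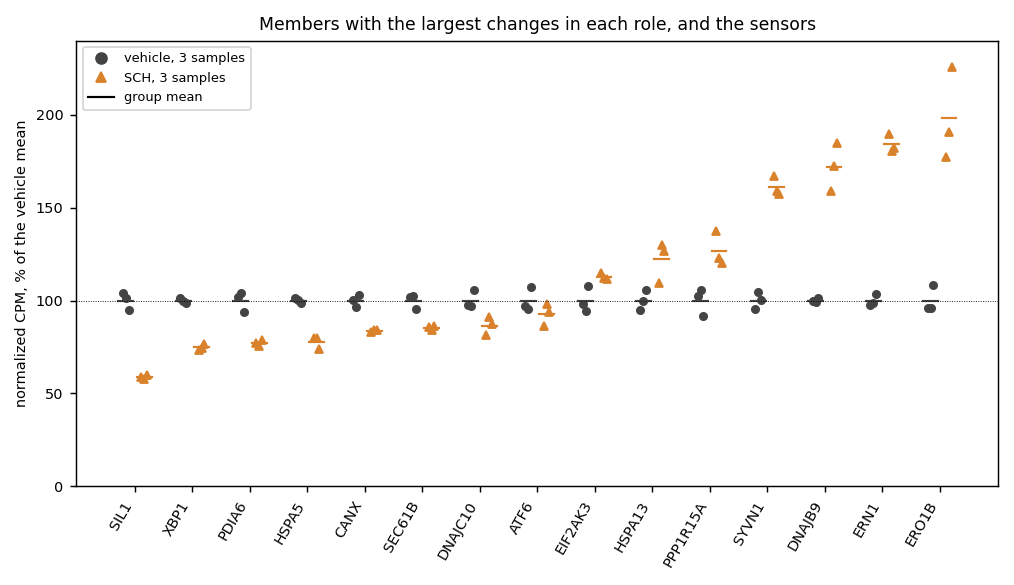
Normalized CPM of each sample as a percentage of the vehicle mean (vertical axis, from 0) for the sensors, HSPA5, PPP1R15A and the members with the largest rise or fall in their role, with circles for vehicle, triangles for SCH and lines for group means (n = 3 each). The samples of the groups overlap only in ATF6, and the triangles run from SIL1, the lowest, to ERO1B, the highest.

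Among the 8 disulfide isomerases and oxidases, 2 genes were lowered, 1 was raised and 5 did not pass the test. That is 37.5% changed, beside 58.7% of all genes tested. ERO1B (ENSG00000086619, chromosome 1, 236215555 to 236281985) encodes an oxidase that returns disulfide isomerases to their active form. It had 7.13, 7.13 and 8.04 CPM after vehicle and 13.2, 14.2 and 16.8 CPM after SCH. This was the largest rise of any member, 1.99-fold (log2 fold change 0.99, SE 0.12, adjusted p = 1.27e-07 by edgeR), on a low level of 1.34 FPKM after vehicle. Its paralog ERO1A, with 18.9 FPKM after vehicle, had 147 ± 10.4 CPM (SD, n = 3) and 156 ± 2.85 CPM (SD, n = 3) after SCH, and overlapped between the groups (log2 fold change 0.08, adjusted p = 0.211 by edgeR). ERO1A passed with library size alone (0.18, adjusted p = 0.00628) and without vehicle replicate 3 (0.14, adjusted p = 0.0129, edgeR for both).

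PDIA6 (ENSG00000143870, chromosome 2, 10783391 to 10837977), an isomerase that also binds the sensor IRE1, had 169, 173 and 156 CPM after vehicle and 128, 125 and 131 CPM after SCH. It fell by 22.8% (log2 fold change -0.37, SE 0.052, adjusted p = 1.50e-06 by edgeR), and 25.2% of its exonic bases lie in exons of ATP6V1C2. PDIA4 had a log2 fold change of -0.19, and -0.09 with library size alone, where it did not pass (adjusted p = 0.119 by edgeR). P4HB, the isomerase gene that is highest per length, and PDIA3 did not pass, with log2 fold changes of 0.043 and -0.048. P4HB passed with library size alone (0.15, adjusted p = 0.00533 by edgeR). PDIA3 shares 18.9% of its exonic bases with other genes, and its transcribed pseudogene PDIA3P1 had 5.47% of its count. TXNDC5 and TXNDC11, which carry thioredoxin domains, had log2 fold changes of -0.15 and -0.10 and did not pass. TXNDC5 is uncertain, since 60.6% of its exonic bases are shared with the readthrough gene BLOC1S5-TXNDC5, and it passed without vehicle replicate 3 (-0.31, adjusted p = 0.0101 by edgeR).

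J-domain proteins stimulate the ATPase of BiP, and they split. DNAJB9 (ENSG00000128590, chromosome 7, 108569568 to 108574850), which encodes ERdj4, a known target of spliced XBP1 and a repressor of IRE1, had 22.0, 21.9 and 22.4 CPM after vehicle and 35.1, 38.1 and 40.9 CPM after SCH. The lowest SCH-treated sample was far above the highest vehicle-treated sample, and the rise was 1.72-fold (log2 fold change 0.78, SE 0.075, adjusted p = 5.09e-09 by edgeR). DNAJC3, which encodes p58IPK, an inhibitor of PERK, rose from 62.9 ± 4.26 to 75.6 ± 2.27 CPM (SD, n = 3 each), with a log2 fold change of 0.27. DNAJC10, which encodes a J-domain protein that also reduces disulfides, had 149, 148 and 161 CPM after vehicle and 124, 139 and 133 CPM after SCH. Its log2 fold change was -0.21 (SE 0.054, adjusted p = 0.00204 by edgeR), and -0.11 (adjusted p = 0.0983) with library size alone. DNAJB11, which encodes a J-domain protein that carries clients to BiP, did not pass the test (0.12, adjusted p = 0.0780 by edgeR), although its groups were apart, and it passed with library size alone (0.22, adjusted p = 0.00169). Of its exonic bases, 23.2% are shared with AC068631.1, AC068631.2 and TBCCD1.

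Several members that respond sharply to ER stress in many cell types differed by less than their spread between replicates. SDF2L1, which encodes a partner of the J-domain proteins, had 30.3, 29.1 and 25.8 CPM after vehicle and 31.0, 28.1 and 29.3 CPM after SCH. The secreted factors MANF and CRELD2 had log2 fold changes of 0.035 and 0.03, with adjusted p = 0.693 and 0.769 by edgeR. HERPUD1, which encodes an ERAD scaffold, had 53.0, 54.8 and 58.3 CPM after vehicle and 56.1, 54.7 and 60.9 CPM after SCH (log2 fold change 0.049, SE 0.063, adjusted p = 0.527 by edgeR). The samples of both groups overlapped in each of these 4 genes, and their sign changed in some alternatives except in HERPUD1, which passed with library size alone (0.15, adjusted p = 0.0446 by edgeR).

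The ERAD genes rose or did not pass, with 5 of 8 tested genes raised and none lowered. Together 62.5% had changed, beside 58.7% of all genes tested. Over all genes, 29.3% were raised and 29.4% lowered. The count of raised ERAD genes was 6 with library size alone, which moved the median of all genes to 0.099. It was 3 with upper quartile factors or without vehicle replicate 1, vehicle replicate 2 or SCH replicate 2. None was lowered in any of these. SYVN1 (ENSG00000162298, chromosome 11, 65121780 to 65134533) encodes HRD1, the ubiquitin ligase at the center of this pathway. It had 61.0, 67.1 and 64.1 CPM after vehicle and 107, 102 and 101 CPM after SCH. The groups were far apart, at 1.62-fold (log2 fold change 0.69, SE 0.057, adjusted p = 3.30e-10 by edgeR), and 10.1% of its exonic bases are shared with FAU, MIR6751 and MRPL49.

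EDEM1 and EDEM3, which trim mannose from misfolded glycoproteins, had log2 fold changes of 0.27 and 0.31. They rose from 63.8, 65.0 and 73.4 to 78.2, 83.1 and 82.5 CPM and from 60.2, 60.6 and 72.5 to 82.4, 80.5 and 77.4 CPM, respectively, with the groups apart in both. Their paralog EDEM2 had 25.8 ± 1.54 CPM after vehicle and 25.0 ± 1.91 CPM after SCH (SD, n = 3 each) and did not pass. SEL1L, which encodes the partner of HRD1, had 129, 135 and 157 CPM after vehicle and 165, 154 and 147 CPM after SCH. Its groups overlapped and it passed narrowly (log2 fold change 0.15, adjusted p = 0.0480 by edgeR). The call was lost when vehicle replicate 1 (adjusted p = 0.270), vehicle replicate 2 (0.138), SCH replicate 1 (0.185) or SCH replicate 2 (0.0676) was left out. It was also lost with DESeq2 (0.0579), upper quartile factors (0.125), at least 10 counts in every sample (0.0546) and limma on log2(FPKM + 1) and log2(FPKM + 0.1) (0.126 and 0.121), that is in 9 of 15 alternatives. DERL1, which encodes a channel subunit, was also near the threshold (0.13, adjusted p = 0.0376). It did not pass without vehicle replicate 1 (0.112), vehicle replicate 2 (0.0931) or SCH replicate 2 (0.171), nor with upper quartile factors (0.119) or the replicate number as a block (0.0508), all by edgeR. DERL2 had 67.3 ± 2.20 CPM after vehicle and 68.5 ± 1.05 CPM after SCH (SD, n = 3 each). DERL3 was not tested, with 10, 0 and 0 counts after vehicle and 0, 2 and 1 counts after SCH, at or under a floor of 3 counts in 5 of 6 samples. Of its exonic bases, 77.0% are shared with SMARCB1.

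The sensors and XBP1 gave 1 raised gene, 1 lowered gene and 2 that did not pass. Over all genes tested, 29.3% were raised and 29.4% lowered, and no tendency is read from so few members. ERN1 (ENSG00000178607, chromosome 17, 64039142 to 64130819), the gene of IRE1, had 48.4, 48.7 and 51.3 CPM after vehicle and 93.8, 89.3 and 90.2 CPM after SCH. The groups lay far apart, at 1.84-fold (log2 fold change 0.88, SE 0.057, adjusted p = 6.16e-12 by edgeR). XBP1 (ENSG00000100219, chromosome 22, 28794555 to 28800597), whose mRNA IRE1 splices, had 97.5, 96.1 and 95.1 CPM after vehicle and 70.5, 71.7 and 73.7 CPM after SCH. Each SCH-treated sample lay below each vehicle-treated sample, and XBP1 fell by 25.2% (log2 fold change -0.42, SE 0.053, adjusted p = 4.39e-07 by edgeR). Its ERSE lies 52 to 34 bases before the start.

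ATF6 (ENSG00000118217, chromosome 1, 161766294 to 161964070) had 109, 107 and 120.2 CPM after vehicle and 96.6, 110.1 and 105 CPM after SCH. The groups overlapped and the log2 fold change was -0.10 (SE 0.060, adjusted p = 0.140 by edgeR). EIF2AK3 (ENSG00000172071, chromosome 2, 88556741 to 88627576), the gene of PERK, had 10.9, 10.5 and 12.0 CPM after vehicle and 12.8, 12.5 and 12.4 CPM after SCH. Its SCH-treated samples lay just above the others, and with a log2 fold change of 0.18 (SE 0.10) it did not pass (adjusted p = 0.138 by edgeR). It passed with library size alone (0.28, adjusted p = 0.0213). Of its exonic bases, 15.1% are shared with other genes. For single genes, an exact two-sided permutation test of 3 samples against 3 cannot go below p = 0.1, the value it gave for ERN1, XBP1 and EIF2AK3.

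The remaining members act in translation and translocation. PPP1R15A (ENSG00000087074, chromosome 19, 48872392 to 48876057) encodes GADD34, the inducible subunit of the phosphatase that removes phosphate from eIF2alpha. It had 418, 432 and 375 CPM after vehicle and 562, 501 and 490.0 CPM after SCH. The groups were apart, at 1.27-fold (log2 fold change 0.34, SE 0.057, adjusted p = 1.76e-05 by edgeR). Its constitutive counterpart PPP1R15B had 158 ± 10.5 CPM after vehicle and 158 ± 1.17 CPM after SCH (SD, n = 3 each). Of the translocon genes, SEC61B had 95.4, 95.8 and 89.1 CPM after vehicle and 79.9, 78.8 and 80.5 CPM after SCH, with the groups apart (log2 fold change -0.23, SE 0.054, adjusted p = 9.32e-04 by edgeR). SEC61A1, which encodes the pore subunit, had 513 ± 10.2 CPM after vehicle and 509 ± 10.5 CPM after SCH (SD, n = 3 each) and did not pass.

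Per length, the members spanned a wide range of levels after vehicle. CALR was highest at 350.2 ± 14.0 FPKM (SD, n = 3), followed by CANX at 271 ± 8.61 FPKM and HSPA5 at 240.4 ± 3.31 FPKM. P4HB had 154 ± 2.99 FPKM, and PPP1R15A (127 ± 9.35) and HSP90B1 (119 ± 2.90) did not differ beyond their spread. Among the 10 highest members, down to PDIA3 at 57.8 FPKM, 5 were lowered and 1, PPP1R15A, was raised. Among the other 29 tested members, 5 were lowered and 10 were raised. Over all genes tested, 29.4% were lowered and 29.3% raised, and a link between level and direction was not tested. ERN1 had 4.40 FPKM after vehicle and 8.14 FPKM after SCH, EIF2AK3 had 1.98 and 2.25 FPKM, and DERL3 was lowest. The level of all 40 members together was 9134, 9089 and 9102 CPM after vehicle and 8784, 8645 and 8489 CPM after SCH. The direction of this sum turned with the scaling, since with library size alone it was 8793, 8732 and 8842 after vehicle and 9112, 8970.3 and 8779 after SCH, where the groups overlapped. The sum is carried by the abundant chaperones and gives little weight to members at a low level.

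**Figure D3:**
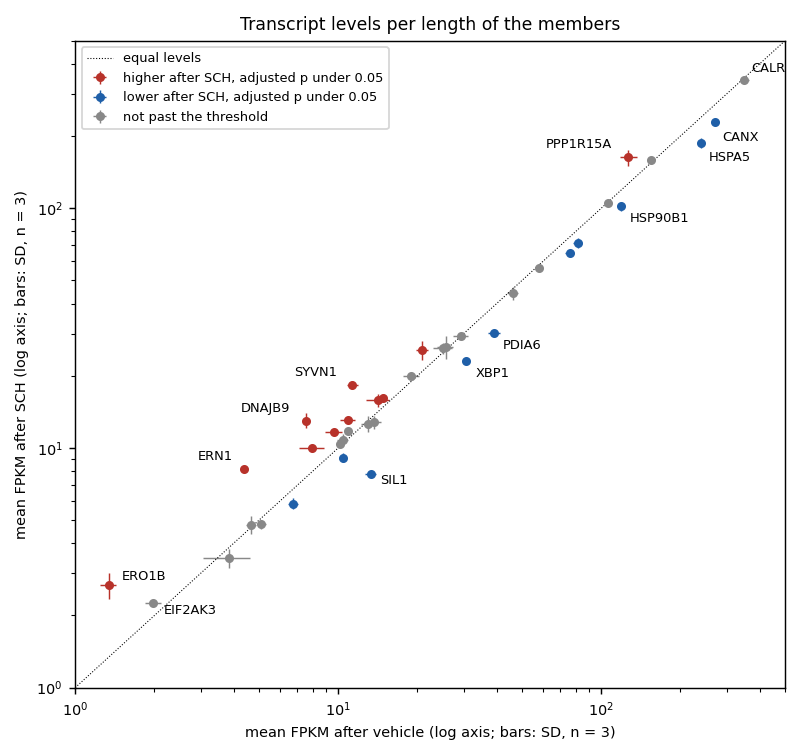
Mean FPKM after vehicle (horizontal) and after SCH (vertical), both on log axes with bars for the SD (n = 3), for the 39 tested members, colored by the result of edgeR's test. Of the 10 highest members, 5 lie below the line of equal levels as lowered genes, where 29.4% of all genes tested were lowered. The raised genes ERO1B, ERN1, DNAJB9 and SYVN1 lie at lower levels, with SYVN1 the highest of them at 18.3 FPKM after SCH. PPP1R15A, at 127 FPKM after vehicle, is a raised gene among the 10 highest. Of the other 29 tested members, 10 were raised and 5 lowered. A link between level and direction was not tested.

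A further 142 genes of the secretory pathway and of ER stress signaling were listed by function, and 138 of them were tested. Of these, 44 were raised and 50 were lowered, that is 68.1% changed beside 58.7% of all genes. The branch downstream of PERK held 4 raised and 7 lowered genes among 14. ATF4, the transcription factor of this branch, had 582, 583 and 579 CPM after vehicle and 385, 392 and 407 CPM after SCH, clearly apart (log2 fold change -0.56, SE 0.045, adjusted p = 2.73e-10 by edgeR). ATF3, a stress-induced factor, had 10.2, 10.8 and 9.50 CPM after vehicle and 31.3, 29.7 and 31.5 CPM after SCH, with no overlap (1.60, SE 0.087, adjusted p = 2.97e-13 by edgeR). DDIT3, the gene of CHOP, rose from 45.8 ± 1.58 to 55.8 ± 1.32 CPM (SD, n = 3 each), with a log2 fold change of 0.29, and shares 39.6% of its exonic bases with other genes. TRIB3, a target of ATF4 and CHOP, was lowered, with a log2 fold change of -0.72, and so was ATF5, at -0.57 and with 23.7% of its exonic bases shared.

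The listed ERAD genes outside the members held 10 raised and 4 lowered genes among 20, where 29.3% of all genes tested were raised and 29.4% lowered. Differences between the lists were not tested. OS9, which encodes a lectin that brings glycoproteins to HRD1, and UBXN4 rose with log2 fold changes of 0.45 and 0.34. Genes of translocation and signal peptide removal held 10 lowered and 4 raised genes among 19. Among them SSR3, a subunit of the translocon-associated complex, and SRPRA and SRPRB, the receptor of the signal recognition particle, had log2 fold changes of -0.43, -0.38 and -0.33. SRPRB shares 21.1% of its exonic bases with other genes. Of the 16 genes of N-glycosylation and glucose trimming, 7 were lowered and 3 raised. STT3A, a catalytic subunit of the oligosaccharyltransferase, was lowered (-0.54), as was GANAB, a glucosidase (-0.31). KRTCAP2 had a log2 fold change of -0.52 on a low level of 3.22 ± 0.0992 CPM after vehicle (SD, n = 3), and lost its call without any of the vehicle replicates 1, 2 and 3 (-0.51, -0.54 and -0.50) or SCH replicates 1 and 2 (-0.41 and -0.51). KRTCAP2 also lost it with library size alone (adjusted p = 0.0805), with DESeq2 (0.0808) and with no filter (0.0604), and 18.4% of its exonic bases are shared.

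Among 18 tested disulfide and prolyl isomerases outside the members, 8 were lowered and 4 raised, where 29.4% of all genes tested were lowered and 29.3% raised. TMX4 rose (0.76) and its relative TMX2, also a membrane-bound thioredoxin family protein, fell by 0.54 on the log2 scale, while the prolyl isomerase gene FKBP14 rose (0.51). The COPII coat and cargo receptor genes held 4 raised and 7 lowered genes among 20, with SEC24C (0.34) and SEC16A (0.32) raised and KDELR3 (-0.45), a receptor for the ER retrieval signal, lowered. Of its exonic bases, SEC24C shares 42.9%. ATF6-like factors, their proteases and signaling partners were raised in 3 of 9 tested genes and lowered in 3, among them CREB3 (0.38) and TRAF2 (-0.45), an adaptor that binds IRE1. CREB3L4 (0.41) did not pass without vehicle replicate 1 (0.39), vehicle replicate 3 (0.31) or SCH replicate 2 (0.33).

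The lists on calcium, ER-phagy and death complete the pathway. In them 66.7%, 66.7% and 85.7% of the tested genes had changed, respectively, beside 58.7% of all genes. Of all genes tested, 29.3% were raised and 29.4% lowered. Of 9 tested calcium genes, 3 were raised and 3 lowered, with STIM2, a sensor of ER calcium, and ORAI1, the channel it opens, at log2 fold changes of 0.69 and 0.46, and ITPR1, a release channel, at -0.41. ITPR1 did not pass with limma on log2(FPKM + 0.1) (-0.34, adjusted p = 0.0560). Of 6 ER-phagy receptor genes, 4 were raised and none lowered, at log2 fold changes of 0.86 for RETREG1, 0.72 for CALCOCO1 and 0.65 for CCPG1. RETREG1 was low, at 2.63 ± 0.162 CPM after vehicle (SD, n = 3), and CCPG1 shares 39.8% of its exonic bases. Of 7 death effectors, 5 were raised and 1, BAX, was lowered. BBC3, BCL2L11 and CASP4 had log2 fold changes of 1.11, 0.50 and 0.76. Smaller shares of exonic bases overlapped other genes in OS9 (13.5%), CREB3L4 (12.9%), TMX2 (11.8%), TXNDC11 (11.2%), BCL2L11 (10.9%) and CREB3 (10.5%).

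**Figure D4:**
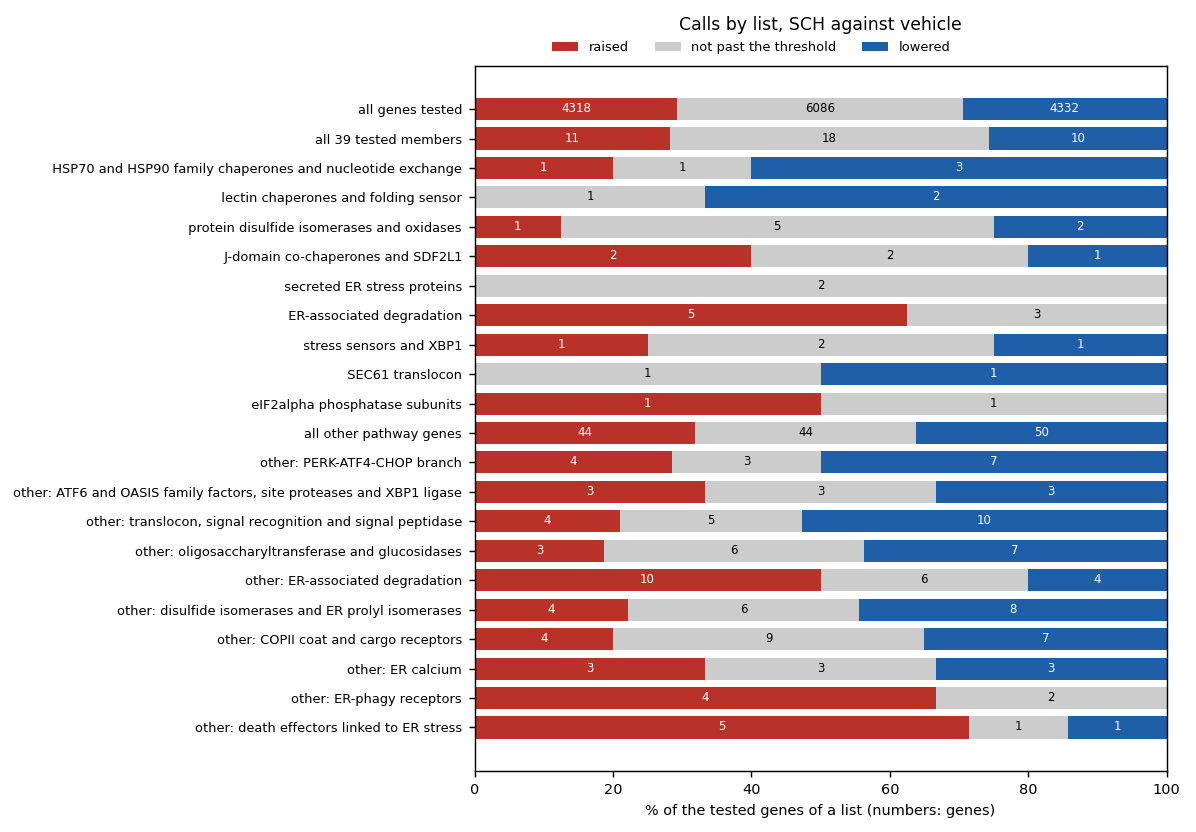
Share of tested genes raised, lowered or not past the threshold (horizontal axis, percent, with gene numbers in the bars) for all genes tested, the members by role and the other lists, which carry the prefix other. In the members 11 of 39 genes were raised and 10 lowered, and over all genes tested 29.3% were raised and 29.4% lowered. Both ERAD lists hold more raised than lowered genes (5 against 0 and 10 against 4). The 5 became 3 with upper quartile factors or without vehicle replicate 1, vehicle replicate 2 or SCH replicate 2.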

How the data were processed

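Messenger RNA was sequenced in 3 vehicle-treated and 3 SCH-treated samples of MDA-MB-231 cells. The authors deposited raw counts per gene, with no normalization, and FPKM values per sample, which were proportional to the count over the gene length within each sample. The submitters' processing notes list CASAVA 1.8, HISAT2 2.0.5, featureCounts 1.5.0-p3 and DESeq2 1.20.0 and the build GRCh38, and the strand setting of the counting is not given in the sources used here.

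The test was that of edgeR 4.0.16 under R 4.3.3 (TMM, filterByExpr, quasi-likelihood F test, no covariates, Benjamini-Hochberg over 14736 genes tested, threshold 0.05). CPM are TMM-normalized and relative to the counts on tested genes. The standard error is the absolute log2 fold change over the square root of F. Alternatives used DESeq2 1.42.0, limma 3.58.1 with trend on log2(FPKM + 1) and log2(FPKM + 0.1), other scalings and filters, the replicate number as a block, other thresholds and each sample left out. Shared exonic bases were computed over both strands of GENCODE 29. Scripts were tested on simulated data and run with Python 3.11.15. Replicates of a group differed beyond sampling noise (chi-square over its degrees of freedom from 2.12 to 5.75), so no library was counted as a copy.

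The members and lists were chosen with earlier results of these data known. Members shown sample by sample are HSPA5, PPP1R15A, the sensors with XBP1, and the called members with the largest rise and fall of each role. From each other list, at most 3 changed genes with the largest absolute log2 fold change and a mean count of at least 50 are named, with ATF4, DDIT3 and ATF3, and 1 gene that this rule picks is not reported here. EDEM1, EDEM3, HERPUD1, SDF2L1, SEL1L, DERL3 and BAX were singled out after their values were seen.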

Additional observations from a re-analysis of the deposited data

How the results depend on the processing

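Over 15 refitted alternatives, 16 of the 21 called members kept their direction and their call. The 5 that lost it in some alternative were UGGT1, PDIA4, DNAJC10, SEL1L and DERL1, and 6 of the 18 uncalled members passed in some. Of the 32 other genes picked by the rule for named genes, 29 kept both. The cause of these changes was not tested.

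Calling only genes that also had an absolute log2 fold change of 1 or more left 1292 genes in place of 8650, fewer by construction. It left 0 members raised and 0 lowered. ERO1B, at 0.99, was just under this limit, and its log2 fold change ran from 0.65 to 1.09 over the alternatives. The members' median log2 fold change was 0.129 with library size only and -0.007 with upper quartile factors. Leaving out single replicates gave medians from -0.013 (without vehicle replicate 3) to 0.025 (0.001 without SCH replicate 1), 9 to 12 members raised, 10 to 11 lowered and 7809 to 8489 genes called. DESeq2 called 7919 genes, 10 members raised and 10 lowered. With the replicate number as a block, 8705 genes were called, 10 members raised and 10 lowered. The deviations of same-numbered samples had correlations of 0.0464, -0.0222 and 0.022, and those of differently numbered samples ran from -0.0843 to 0.0658. These values do not show whether same-numbered cultures were prepared together.

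The sign of 11 uncalled members changed in some alternative, none of them with a call there. With library size only, log2 fold changes were 0.033 for HYOU1, 0.072 for CALR, 0.055 for PDIA3, 0.008 for TXNDC11, 0.056 for EDEM2, 0.093 for SEC61A1 and 0.101 for PPP1R15B. With upper quartile factors they were -0.002 for CRELD2 and -0.007 for DERL2. Without the filter they were 0.008 for SEC61A1 and 0.016 for PPP1R15B, which was also at 0.003 with RLE factors and with DESeq2, and at 0.006 and 0.007 on log2(FPKM + 1) and log2(FPKM + 0.1). Leaving out single replicates gave -0.013 to 0.108 for SDF2L1, -0.044 to 0.111 for MANF, -0.030 to 0.080 for CRELD2, -0.099 to 0.009 for EDEM2, -0.020 to 0.016 for SEC61A1 and -0.037 to 0.053 for PPP1R15B.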
